A study of Mus musculus with 16 samples.

Results

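Transforming growth factor beta (TGF-beta) signalling was described by 10 genes: the ligands Tgfb1, Tgfb2 and Tgfb3, the receptors Tgfbr1, Tgfbr2 and Tgfbr3, and the latent TGF-beta binding proteins Ltbp1, Ltbp2, Ltbp3 and Ltbp4. They were chosen by name, as a set proposed with earlier results of these data known, and all 10 were found among the 25719 genes counted. RNA-seq libraries of mouse tail tendon fascicles, the collagen strands of the tail, came from 8 wild type (WT) samples and 8 knockout (KO) samples (ScxCre;Vhlf/f), in which Cre recombinase driven by the tendon gene Scx meets a floxed Vhl gene. Vhl marks hydroxylated HIF1α for degradation, and the series title places the work in overload and disease of tendon. Scx-driven Cre acts in cells of the tendon lineage, whereas the libraries hold RNA of every cell in the strand. The ages of the mice, their sexes and any floxed or Cre allele of the WT group are not given in the sources used here. Nor is it said that each sample is a separate animal, so p-values measure the spread between these samples.

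TGF-beta is secreted in a latent form, folded with its own propeptide. An LTBP is bound to the propeptide by disulfide bonds and ties the complex to fibrillin microfibrils of the matrix, from which integrins, proteases or thrombospondin release the active ligand. The ligand joins the type II receptor (Tgfbr2) to the type I receptor (Tgfbr1), which phosphorylates SMAD2 and SMAD3, while the type III receptor betaglycan (Tgfbr3) presents ligand, TGF-beta2 above all. In tendon, this pathway is needed in the embryo to form and keep tendon progenitors and it drives matrix synthesis.

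Total counts lay between 10488355 and 18753254 per KO library and between 10792900 and 16379401 per WT library. The 10 genes had between 295 and 12116 counts in a library, so none was near the detection floor of 3 counts. Vhl was at 9.35 ± 1.25 CPM in the KO and 20.5 ± 3.69 CPM in the WT (SD, n = 8; library-scaled counts, CPM, with TMM factors, which adjust for differences in make-up), and no library crossed over. The groups also differed in markers of cell types. For scale, 25.6% of all tested genes were called higher in the KO and 22.7% lower, at an adjusted p under 0.05. Of 12 tested tendon markers 8 were lower and 1 higher in the KO (summed level 83890 to 185600 CPM against 139300 to 389400), of 12 tested endothelial markers 10 were higher (95.7 to 840 against 53.5 to 77.5 CPM, with Tie1, Cldn5 and Robo4 at or under 3 counts in every WT library), of 9 mural markers 6 were higher and 1 lower (374 to 2213 against 359 to 515 CPM), and of 5 erythroid markers all 5 were higher (77.8 to 563 against 15.1 to 50.8 CPM, with Slc4a1 at or under 3 counts in every WT library). Skeletal muscle markers, 1 of 16 higher, ran from 430 to 25500 CPM in the KO and from 102 to 10800 CPM in the WT, and were most abundant in KO libraries 6, 7 and 8 and WT library 5. Schwann (2 of 6 higher), keratinocyte (1 of 5 higher, 3 lower) and adipocyte markers (2 of 3 higher) summed to at most 544, 66.1 and 111 CPM in any library. Wild type library 3 stood apart, with 11.95% of its counts in Col1a1 and Col1a2 against 19.7% to 29.2% in the other 7, and KO libraries 5, 6 and 8 and WT library 8 had 479 to 1251 CPM of Scx against 54.5 to 140 CPM elsewhere. The part of these cell types in the results was not tested, beyond fits with the endothelial or muscle score, the mean log2 CPM of those markers, as a covariate.

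The make-up of the latent binders differed most between the genotypes. Ltbp1 and Ltbp4 fell, Ltbp2 rose and Ltbp3 did not pass the test. Betaglycan fell about as much as Ltbp4, Tgfbr2 and the ligands Tgfb2 and Tgfb3 fell by less, and Tgfb1 and Tgfbr1 did not pass. With total counts Tgfb3 was 0.082 on the log2 scale, above 0 but under the median gene at 0.32, and did not pass. In all, 7 of the 10 genes passed an adjusted p of 0.05 (edgeR quasi-likelihood test, Benjamini-Hochberg over all tested genes), where 48.3% of 14803 tested genes did. The 6 lower genes compare with 22.7% of all genes called lower, and the 1 higher gene with 25.6% called higher. A change of at least 2-fold was seen in 4 of the 10 (13.2% of all tested genes): 1 was higher (8.3% of all) and 3 lower (4.91%). In 5 the groups did not overlap (19.4% of all tested genes), 1 with higher (10.8%) and 4 with lower levels in the KO (8.61%). The median log2 fold change was -0.28 over the 10 genes and 0.02 over all tested genes. When libraries were scaled by total counts alone, the median of all genes moved to 0.32, so fold changes on that scale are read against 0.32.

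**Figure D1:**
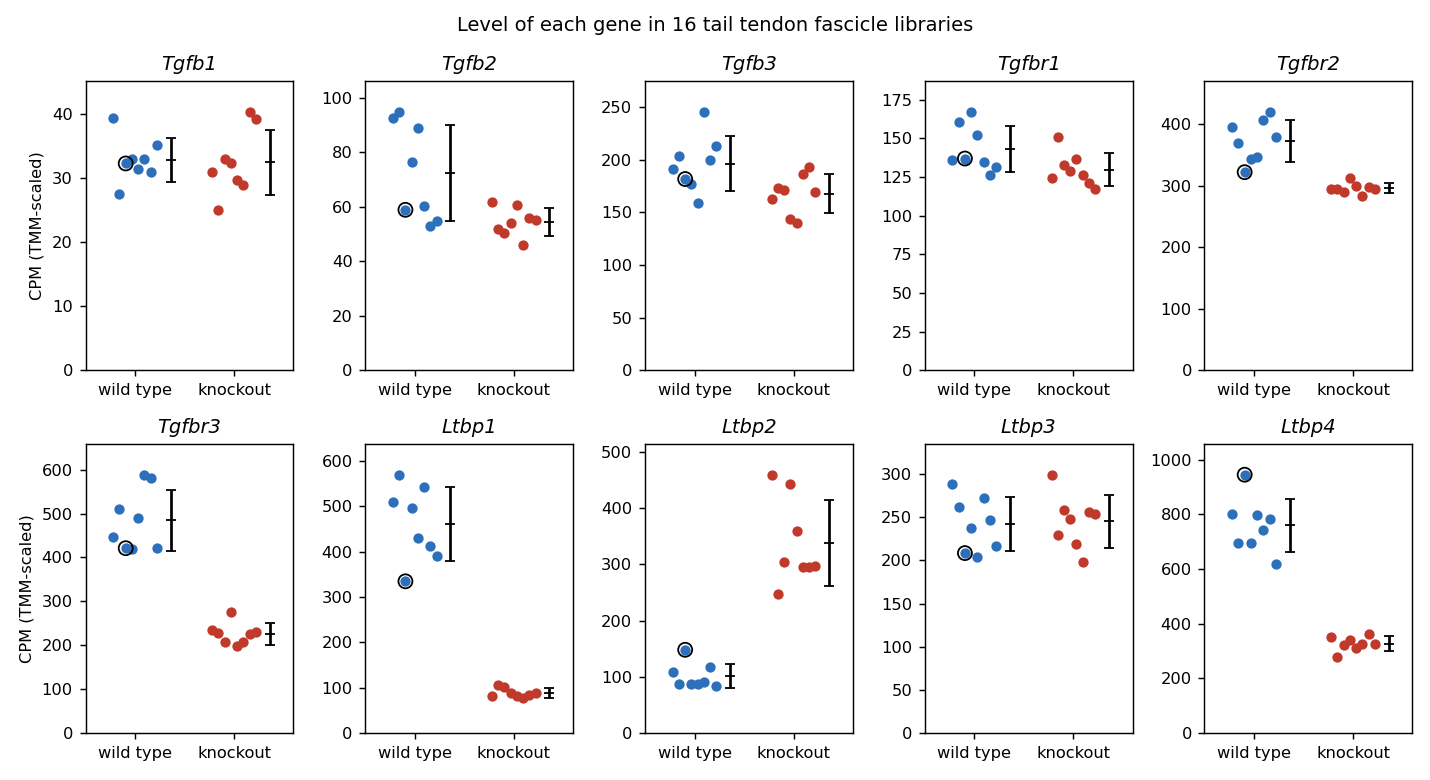
Level of each of the 10 genes in CPM (TMM-scaled, linear axis from 0) in 8 WT libraries (blue) and 8 KO libraries (red), each in order of replicate number, with the mean and SD at the right of each group; the black ring marks WT library 3. The groups do not overlap for Tgfbr2, Tgfbr3, Ltbp1, Ltbp2 and Ltbp4.

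Ltbp1 (ENSMUSG00000001870, chromosome 17), which binds the latent form of all 3 ligands, was the gene with the largest fall. Its level ran from 76.8 to 106 CPM in the KO (median 85.3) and from 334.5 to 570 CPM in the WT (median 463). The highest KO library lay far under the lowest WT library, which was library 3. The mean was 88.1 ± 9.97 CPM against 461 ± 81.4 CPM (SD, n = 8), a log2 fold change of -2.39 (SE 0.109; edgeR, adjusted p = 1.25e-12), or 5.24-fold lower. Over 28 other settings and left-out libraries the log2 fold change lay between -2.45 and -2.07, past the threshold in each. Counts do not separate the long and the short form of Ltbp1, which start at different promoters.

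Ltbp2 (ENSMUSG00000002020, chromosome 12), which differs from the other LTBPs in that it does not bind latent TGF-beta but is part of microfibrils and elastic fibres, was the only one of the 10 genes to rise. Knockout libraries ran from 248 to 460 CPM (median 301) and WT libraries from 84.4 to 148 CPM (median 89.0). No library overlapped the other group. Knockout libraries 1 and 4 were highest, at 460 and 444 CPM, and the next KO library was at 360 CPM. In the WT, library 3 was highest. The means were 338 ± 76.5 and 101 ± 22.2 CPM (SD, n = 8), a log2 fold change of 1.74 (SE 0.144; edgeR, adjusted p = 7.98e-09), or 3.34-fold higher. The value lay between 1.66 and 2.02 over the same 28 alternatives and passed in each. An unmeasured antisense gene, D030025P21Rik, overlaps its exons in the GENCODE M21 annotation, so its counts may include reads of that gene if strand was not used.

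Ltbp4 (ENSMUSG00000040488, chromosome 7), which binds latent TGF-beta1 weakly and serves mainly in elastic fibre assembly, had the highest level of the 4 in the WT. Wild type libraries ran from 618 to 945.5 CPM (median 763) and KO libraries from 276 to 361 CPM (median 326). The ranges were well apart. Here library 3 was the WT library farthest from the KO, not the nearest. The means were 760 ± 97.8 CPM in the WT and 327 ± 26.7 CPM in the KO (SD, n = 8), a log2 fold change of -1.22 (SE 0.0845; edgeR, adjusted p = 5.03e-10).

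Ltbp3 (ENSMUSG00000024940, chromosome 19), which also binds latent TGF-beta, was at 245 ± 30.3 CPM in the KO and 242 ± 31.0 CPM in the WT (SD, n = 8). The ranges, 198 to 299 CPM and 204 to 288.5 CPM, covered nearly the same span. The log2 fold change was 0.02 with a 95% interval of -0.17 to 0.21 (edgeR, adjusted p = 0.875). With total counts it was 0.33 (edgeR, adjusted p = 0.00115), where the median gene stood at 0.32.

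The ratio of 2 genes in 1 library does not depend on how libraries are scaled, so Ltbp3 served as the base for the other binders. The log2 ratio of Ltbp1 to Ltbp3 counts was 0.92 ± 0.167 in the WT and -1.48 ± 0.216 in the KO (SD, n = 8). Ltbp1 thus had more counts than Ltbp3 in every WT library and fewer in every KO library. The ratio of Ltbp2 to Ltbp3 went the other way, from -1.27 ± 0.358 to 0.44 ± 0.277, and that of Ltbp4 to Ltbp3 fell from 1.65 ± 0.277 to 0.42 ± 0.159. Each of these 3 differences had an exact permutation p of 0.000155 (two-sided, the smallest that 12870 assignments allow; 0.000311 adjusted over the 8 ratios tested), without overlap between the groups.

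Per kilobase of exon, the scale on which genes can be compared with each other, the WT order of the binders was Ltbp4 at 118 ± 15.1, Ltbp1 at 43.1 ± 7.61, Ltbp3 at 26.7 ± 3.42 and Ltbp2 at 12.4 ± 2.71 CPM per kb (SD, n = 8). In the KO it was Ltbp4 at 50.6 ± 4.13, Ltbp2 at 41.3 ± 9.35, Ltbp3 at 27.1 ± 3.34 and Ltbp1 at 8.24 ± 0.933 CPM per kb. Ltbp1 and Ltbp2 had exchanged places. Each order held in all 8 libraries of its group, except that Ltbp2 exceeded Ltbp4 in 2 KO libraries. As a share of the summed level of the 4 binders, Ltbp2 went from 6.17% ± 1.04 to 32.2% ± 4.08, Ltbp1 from 21.7% ± 3.80 to 6.57% ± 1.25 and Ltbp4 from 58.8% ± 4.29 to 39.9% ± 2.79. The summed level, on the TMM scale, was 200 ± 16.5 CPM per kb in the WT, with a lowest library of 166, and 127 ± 13.9 in the KO, with a highest library of 151.5. The sum was not computed with total counts. With the length of the longest transcript in place of all exons, the order of the binders was the same in both groups.

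**Figure D2:**
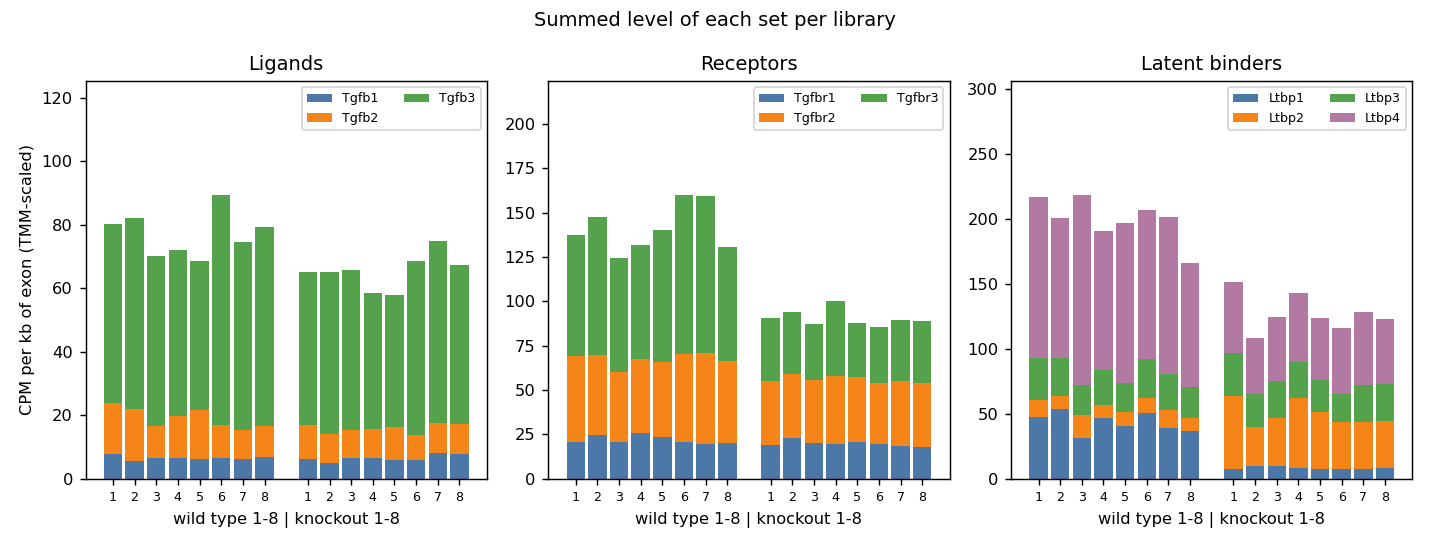
Stacked level of the ligands, the receptors and the latent binders in each library, in CPM per kb of exon (TMM-scaled, linear axes from 0, each panel on its own scale), with WT libraries 1 to 8 at the left of each panel and KO libraries 1 to 8 at the right. On this scale the summed receptors and binders are lower in every KO library, and the orange Ltbp2 part is larger there. Sums were not computed with total counts.

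Of the receptors, Tgfbr3 (ENSMUSG00000029287, chromosome 5) fell most. Knockout libraries ran from 198 to 277 CPM (median 226) and WT libraries from 420 to 589 CPM (median 468). The KO library with the most Tgfbr3, library 4, was still well under every WT library. The means were 226 ± 24.3 and 485 ± 70.0 CPM (SD, n = 8), a log2 fold change of -1.10 (SE 0.0916; edgeR, adjusted p = 6.69e-09), or 2.15-fold lower. The fold change lay between -1.17 and -0.79 over the 28 alternatives and passed in each. Part of its exons overlaps the predicted gene Gm43422 on the same strand.

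Tgfbr2 (ENSMUSG00000032440, chromosome 9), the type II kinase receptor that binds ligand first, was at 296 ± 8.38 CPM in the KO and 373 ± 34.0 CPM in the WT (SD, n = 8). The 8 KO libraries lay in a narrow band from 283 to 312 CPM, with a coefficient of variation of 2.83%, whereas the WT ran from 322 to 420 CPM, with 9.11%. The lowest WT library was again library 3. The log2 fold change was -0.33 (SE 0.0629; edgeR, adjusted p = 2.04e-04). It was -0.02 with total counts (edgeR, adjusted p = 0.757), and with the endothelial score as a covariate it was -0.32 (edgeR, adjusted p = 0.0660).

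Tgfbr1 (ENSMUSG00000007613, chromosome 4), the type I kinase receptor, was at 130 ± 10.5 CPM in the KO (range 117 to 151) and 143 ± 14.8 CPM in the WT (range 126 to 167; SD, n = 8). Of the 8 KO libraries, 5 lay within the WT range. The log2 fold change of -0.14, with a 95% interval of -0.29 to 0.01, did not pass (edgeR, adjusted p = 0.101). It was 0.16 with total counts, and without KO library 2, the highest of its group, it was -0.18 (edgeR, adjusted p = 0.0401).

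The receptors changed unequally. The log2 ratio of Tgfbr3 to Tgfbr2 counts was 0.37 ± 0.149 in the WT and -0.40 ± 0.123 in the KO (SD, n = 8; exact permutation test, two-sided, p = 0.000155, adjusted over 8 ratios 0.000311). Betaglycan had more counts than Tgfbr2 in every WT library and fewer in every KO library. That of Tgfbr1 to Tgfbr2 was -1.38 ± 0.247 and -1.19 ± 0.119, a difference that did not pass (exact permutation p = 0.0695, adjusted 0.0926, n = 8). Per kilobase the WT order was Tgfbr3 at 74.0 ± 10.7, Tgfbr2 at 45.6 ± 4.15 and Tgfbr1 at 21.9 ± 2.27 CPM per kb, with ranges apart. In the KO Tgfbr2 (36.2 ± 1.02) and Tgfbr3 (34.5 ± 3.71) overlapped, and with the longest transcript as the length their order was exchanged. The summed receptor level was 142 ± 13.2 CPM per kb in the WT and 90.5 ± 4.59 in the KO. In bulk tissue, fewer cells that express a gene and less of its RNA per cell cannot be told apart.

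Of the ligands, Tgfb3 was the most abundant in both groups, at 58.0 ± 7.71 CPM per kb in the WT and 49.6 ± 5.45 in the KO (SD, n = 8), and it was above Tgfb2 and Tgfb1 in every library. It took 75.1% ± 4.59 of the summed ligand level in the WT and 75.6% ± 2.87 in the KO. Tgfb2 was at 12.5 ± 3.06 and 9.42 ± 0.903 CPM per kb and Tgfb1 at 6.51 ± 0.686 and 6.44 ± 1.02. Tgfb2 exceeded Tgfb1 in every library on this scale, but with the longest transcript as the length Tgfb1 was the higher of the pair in the KO mean.

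Tgfb2 (ENSMUSG00000039239, chromosome 1), the isoform that depends on betaglycan for high-affinity binding, ran from 46.0 to 61.9 CPM in the KO (median 54.6) and from 53.1 to 94.9 CPM in the WT (median 68.4). The WT was spread wide. Libraries 1, 2, 4 and 5 lay between 76.4 and 94.9 CPM, above all KO libraries, and libraries 3, 6, 7 and 8 lay between 53.1 and 60.3 CPM, within the KO range. The means were 72.5 ± 17.7 and 54.5 ± 5.23 CPM (SD, n = 8), a log2 fold change of -0.41 (SE 0.123; edgeR, adjusted p = 0.00960). Without the 4 libraries with the most muscle RNA it was -0.33 (edgeR, adjusted p = 0.0913), with the endothelial score as a covariate -0.39 (edgeR, adjusted p = 0.270) and with total counts -0.10 (edgeR, adjusted p = 0.438). An unmeasured antisense gene, Gm29491, overlaps its exons.

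Tgfb3 (ENSMUSG00000021253, chromosome 12), an isoform known from tendon development and healing, ran from 140 to 193 CPM in the KO (median 170) and from 159 to 245 CPM in the WT (median 196). In the KO 6 libraries lay within the WT range. The log2 fold change of -0.23 (SE 0.0864) passed narrowly (edgeR, adjusted p = 0.0357). It lost the threshold without KO library 1, 4 or 5 or WT library 2, 6, 7 or 8 (edgeR, adjusted p from 0.0516 to 0.0805), with the muscle score in the fit (-0.20, edgeR, adjusted p = 0.117) or the endothelial score (-0.34, adjusted p = 0.152) and without the 4 libraries with high Scx (-0.21, adjusted p = 0.120). With total counts it was 0.082 (edgeR, adjusted p = 0.423), where the median gene stood at 0.32. Tgfb3 passed in 17 of the 28 alternatives. Among these was the fit without the 4 libraries with the most muscle RNA (-0.35, edgeR, adjusted p = 0.00632). Parts of its exons overlap Gm37804 and Gm48008 on the other strand.

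Tgfb1 (ENSMUSG00000002603, chromosome 7), the isoform most linked to fibrosis and abundant in platelets and macrophages, was at 32.5 ± 5.13 CPM in the KO (range 25.1 to 40.3) and 32.8 ± 3.46 CPM in the WT (range 27.5 to 39.5; SD, n = 8). All 8 WT libraries lay within the KO range. The log2 fold change was -0.01 with a 95% interval of -0.21 to 0.18 (edgeR, adjusted p = 0.907), and with total counts it was 0.29 (edgeR, adjusted p = 0.0134), where the median gene stood at 0.32. Of 12 macrophage markers 5 were higher in the KO and none lower (summed level 1354 to 1981 against 1205 to 1758 CPM). That is 41.7% past the threshold. Over all tested genes 48.3% passed, 25.6% higher and 22.7% lower. Of 4 tested platelet markers 1 was higher and 2 lower (43.5 to 79.9 against 64.8 to 101 CPM, with Gp6 at or under 3 counts in every library). Their part in the level of Tgfb1 was not tested.

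None of the 3 ratios between ligands passed. The log2 ratio of Tgfb2 to Tgfb1 counts differed by -0.35 (exact permutation p = 0.0460, adjusted over 8 ratios 0.0736, n = 8), that of Tgfb3 to Tgfb1 by -0.20 (p = 0.118, adjusted 0.135) and that of Tgfb2 to Tgfb3 by -0.15 (p = 0.427, adjusted 0.427), all two-sided and with overlap between the groups. The ratio of Tgfb2 to Tgfb3 ran from -0.23 (without WT library 6) to -0.065 (without WT library 5) when 1 library was left out. Without the 4 libraries with the most muscle RNA it was 0.050, and that of Tgfb2 to Tgfb1 was -0.17.

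**Figure D3:**
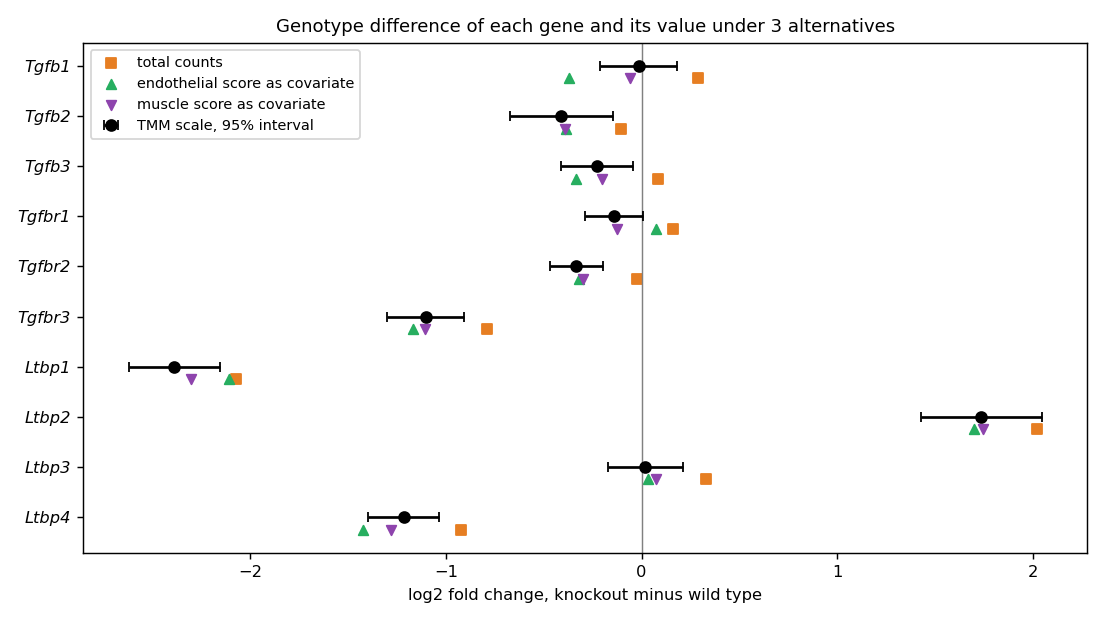
Log2 fold change of each gene, KO minus WT, on the TMM scale with its 95% interval (black; from the standard error and 14 residual degrees of freedom), and its value with total counts (orange squares), with the endothelial score as a covariate (green triangles) and with a muscle covariate (purple triangles). Ltbp1, Ltbp4, Tgfbr3 and Ltbp2 keep their direction in all 4, while Tgfb1, Tgfb3 and Tgfbr1 change sign with total counts. The median of all tested genes is 0.32 with total counts.

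The endothelial score was higher in every KO library than in every WT library, so that level and genotype cannot be told apart in this design. With the score in the fit, Ltbp1 differed by -2.11, Ltbp4 by -1.43, Tgfbr3 by -1.17 and Ltbp2 by 1.70, each past the threshold (edgeR, highest adjusted p = 1.19e-04), while Tgfb2, Tgfb3 and Tgfbr2 were not. Wild type library 3 was the WT library nearest to the KO mean for 3 of the 5 genes without overlap, Tgfbr2, Ltbp1 and Ltbp2. Without it the log2 fold changes of these 3 were -0.37, -2.45 and 1.83.

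Hypoxia-inducible factors bind the core ACGTG or GCGTG, and both strands of the 250 bases before each RefSeq transcript start (GRCm38.p6) were searched for it, since Vhl loss stabilises HIF1α. The table held starts for 8 of the 10 genes, all but Tgfb3 and Tgfbr3. The core was found at 8 of their 12 starts, where 38.6% of 32851 starts of all genes had it. Of these 8 starts 2 belong to Ltbp4, overlap and share 1 match. Counted by gene, which was not done over all genes, the core was in 7 of the 8. It stood before a gene that rose (Ltbp2), genes that fell (Ltbp1, Ltbp4, Tgfbr2, Tgfb2) and genes that did not pass (Tgfb1, Tgfbr1), and not at Ltbp3. A match is a stretch of letters, not a measured site. The 29-base stretches of the 5 genes that passed the test and hold the core are shown because they let the letters around the core be compared, 5′ to 3′ on the gene's strand, with the core in capitals (CACGT and CACGC are the core on the other strand).
Ltbp2: gaggggggcatgGCGTGgataaaagaggc
Ltbp1: gctgcctgacgtCACGTctgctgcagatt
Ltbp4: agcgcccagcccCACGCgcccccgcgcgg
Tgfbr2: ggggtgggggttGCGTGggagcgctggga
Tgfb2: ttgaaggcaaaCACGTGgtttggggagca
They lie at chr12:84876512-84876540 (minus strand) for Ltbp2, chr17:75005450-75005478 (plus) for Ltbp1, chr7:27333749-27333777 (minus) for Ltbp4, chr9:116175485-116175513 (minus) for Tgfbr2 and chr1:186706023-186706051 (minus) for Tgfb2. The core of Ltbp2 stands 37 to 33 bases before the start, that of Ltbp1 67 to 63, that of Tgfbr2 138 to 134 and that of Ltbp4 117 to 113 before 1 of its starts. In the GENCODE M21 annotation the whole Ltbp2 window lies within exons of Ltbp2 or D030025P21Rik. The Tgfb2 stretch holds CACGTG, which reads the same on both strands, and the Ltbp1 core overlaps a SMAD box, CAGAC on the other strand. CAGAC was found at 7 of the 12 starts, against 42.2% of all starts.

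Genes that pass the signal on or hold it back formed a list of 18, all tested. Of these, 3 were higher, 4 lower and 11 did not pass, with a median log2 fold change of -0.0045 (0.02 over all tested genes). The 7 of 18 that passed compare with 48.3% of all tested genes. The transducers themselves differed little: Smad2 fell from 78.7 ± 7.06 to 69.6 ± 4.13 CPM (SD, n = 8; log2 fold change -0.18, edgeR, adjusted p = 0.0187), and Smad3 (0.15, edgeR, adjusted p = 0.123) and the common partner Smad4 (0.07, adjusted p = 0.347) did not pass. The 2 largest changes of the list were falls. The decoy receptor Bambi fell from 46.0 ± 11.6 to 18.4 ± 4.83 CPM (-1.32, edgeR, adjusted p = 3.72e-06). Nedd4l, a ubiquitin ligase for activated SMAD2 and SMAD3, fell from 83.2 ± 11.8 to 38.6 ± 7.06 CPM (-1.11, edgeR, adjusted p = 1.16e-07). Only these 2 of the 18 were without overlap between the groups, against 19.4% of all tested genes. The inhibitory Smad7 rose from 26.4 ± 6.56 to 38.4 ± 4.54 CPM (0.54, edgeR, adjusted p = 0.00114), as did the corepressors Tgif1 (0.51, adjusted p = 0.00361) and Skil (0.25, adjusted p = 0.0417), while Ski fell (-0.21, adjusted p = 0.0220). Skil lost the threshold without any 1 of 10 libraries (KO 2, 4, 5, 6 or 7 or WT 1, 2, 3, 6 or 7). With total counts Smad2 and Ski were 0.13 and 0.094, and Smad3 and Smad4 passed at 0.45 and 0.38. The median gene stood at 0.32 on that scale. Without the 4 libraries with the most muscle RNA, Smad2 (-0.16), Ski (-0.16) and Skil (0.26) did not pass and Smad3 did (0.25, edgeR, adjusted p = 0.0188). The fold change of Skil was no smaller there, on fewer libraries. With the endothelial score only Nedd4l of the 7 passed, in a fit where 3961 of all tested genes passed in place of 7151. Bambi was then -0.74, Smad7 0.41 and Smad2 -0.13, while Tgif1 (0.63) and Ski (-0.25) had fold changes no smaller than before.

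Of 19 genes that process or release the latent complex 18 were tested. Of these, 5 were higher and 4 lower (50.0% against 48.3% of all tested genes), with a median of 0.02. Membrane protease Mmp14 rose from 112 ± 12.4 to 233 ± 41.0 CPM (SD, n = 8; log2 fold change 1.05, edgeR, adjusted p = 5.70e-08), without overlap, and the integrin subunit Itgb3 from 9.73 ± 2.24 to 17.7 ± 3.35 CPM (0.87, adjusted p = 3.89e-05). Fibrillin-2 (Fbn2), a microfibril protein, was at 4.06 ± 4.00 and 10.3 ± 6.08 CPM and passed only narrowly (1.35, edgeR, adjusted p = 0.0441). It lost the threshold without any 1 of 10 libraries (KO 1, 6, 7 or 8 or WT 1, 2, 3, 6, 7 or 8), and with the endothelial score it was -0.59. The lower genes were led by the proteases Tll1 (-1.01, edgeR, adjusted p = 8.72e-04), Plau, which generates plasmin (-0.81, adjusted p = 1.46e-05), and Bmp1, which cleaves LTBP1 (-0.57, adjusted p = 1.56e-04). Plat, which also generates plasmin, went the other way, from 29.5 ± 5.81 to 51.1 ± 8.11 CPM (0.79, edgeR, adjusted p = 1.51e-05). Plau and Plat were both without overlap between the groups. With the endothelial score Itgb3 (0.30, edgeR, adjusted p = 0.362), Bmp1 (-0.35, adjusted p = 0.223) and Tll1 (-1.17, adjusted p = 0.0517) did not pass. The fold change of Tll1 was no smaller in that fit, and its SE was 0.427 in place of 0.220.

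The list of other proteins that hold ligand outside the cell or assist the receptors had 18 genes, of which 17 were tested and 6 were higher and 6 lower (70.6% past the threshold, against 48.3%), with a median of 0.17. Small leucine-rich proteoglycans, which bind TGF-beta, went both ways. Asporin (Aspn) rose from 191 ± 71.1 to 743 ± 290 CPM (SD, n = 8; log2 fold change 1.96, edgeR, adjusted p = 1.08e-05) and biglycan (Bgn) from 821 ± 133 to 1778 ± 134 CPM (1.11, adjusted p = 1.32e-08), whereas fibromodulin (Fmod) fell from 15908 ± 2793 to 6522 ± 805 CPM (-1.29, adjusted p = 5.06e-08), each without overlap. Endoglin (Eng), a co-receptor of endothelial cells, rose from 12.6 ± 1.63 to 36.1 ± 15.2 CPM (1.52, edgeR, adjusted p = 1.50e-05). It is itself 1 of the endothelial markers, and with their score in the fit it was 0.18 (edgeR, adjusted p = 0.508). Fibulin-5 (Fbln5), a partner of LTBP4 in elastic fibres, fell (-0.63, edgeR, adjusted p = 6.64e-05), and so did the protease Htra1 (-0.52, adjusted p = 0.00720). Htra1 was no longer past it with total counts (-0.20), the muscle score (-0.35), the endothelial score (-0.03) and without the 4 libraries with high Scx (-0.51, edgeR, adjusted p = 0.0501).

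**Figure D4:**
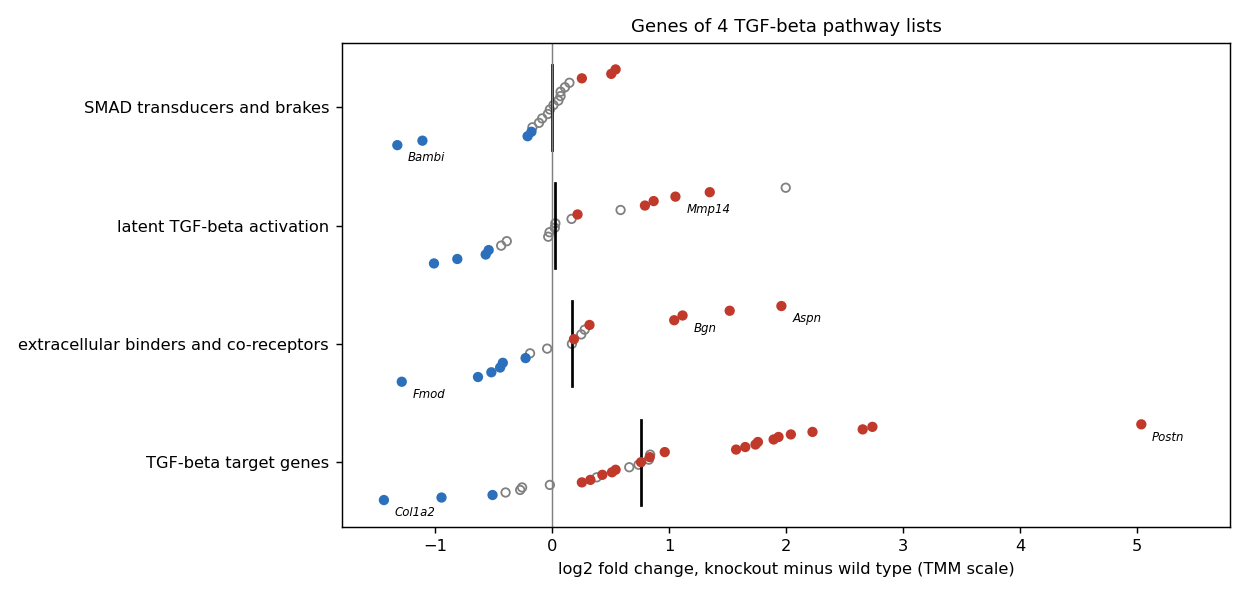
Log2 fold change, KO minus WT (TMM scale), of every tested gene of 4 pathway lists, 1 point per gene, spread vertically by rank: filled red or blue where the gene passed the threshold higher or lower, open grey where it did not, with a black line at each list's median. The target genes lie mostly to the right of 0, with a median of 0.76, and the other 3 lists go both ways.

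Of 32 known TGF-beta target genes 31 were tested. Of these, 19 were higher, 3 lower and 9 did not pass, with a median log2 fold change of 0.76 (0.02 over all tested genes); 25.6% of all tested genes were higher. Ltbp2 is a member of this list too, as are Smad7 and Skil of the transducer list. The matrix protein Tgfbi rose from 533 ± 86.2 to 902 ± 177 CPM (SD, n = 8; 0.76, edgeR, adjusted p = 4.31e-05), without overlap. Periostin (Postn) rose from 18.5 ± 25.1 to 608 ± 549 CPM (5.04, edgeR, adjusted p = 1.94e-04) and the actin-binding Tagln from 4.47 ± 1.01 to 29.8 ± 24.4 CPM (2.74, adjusted p = 3.13e-04), both with a spread in the KO close to the mean. The 1988 bases of Tagln exons overlap Pcsk7 and Gm48529 on the other strand, by 1349 bases in sum. Reads of these genes cannot be separated if strand was not used. Ccn2, a target often used as a readout of the pathway, was at 659 ± 345 and 857 ± 449 CPM and did not pass (0.38, edgeR, adjusted p = 0.428). The 3 lower genes were Col1a2 (-1.44, edgeR, adjusted p = 6.01e-06), Col1a1 (-0.95, adjusted p = 0.00170) and the collagen cross-linking enzyme Lox (-0.51, adjusted p = 0.0125). Type I collagen thus fell where 19 targets rose and 9 did not pass. Lox lost the threshold with total counts (-0.20), with the endothelial score (-0.19) and without the 4 libraries with the most muscle RNA (-0.38, edgeR, adjusted p = 0.129).

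Tagln and Acta2 are also mural cell markers, a class that was higher in the KO. With the endothelial score in the fit, 9 target genes were higher in place of 19. Calls fell over all tested genes too, to 2147 higher in place of 3792 and 1814 lower in place of 3359. Among the 9 was Tgfbi, whose log2 fold change was then 1.26 in place of 0.76. Postn (2.06, edgeR, adjusted p = 0.118) and Smad7 (0.41, adjusted p = 0.194) did not pass and Tagln was -0.44. In that fit 3 target genes were lower, named here after their values were seen: the contractile genes Acta2 (-1.60, edgeR, adjusted p = 0.00290) and Tpm1 (-1.63, adjusted p = 0.0124) and the protease inhibitor Timp3 (-1.10, adjusted p = 0.0104). None of these had passed without the score (0.66, 0.74 and -0.40). Col1a1 and Col1a2 did not pass either (-0.61 and -1.02, edgeR, adjusted p = 0.346 and 0.0504).

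Within the genotypes, after removal of the genotype means, the genes most like Ltbp1 over the 16 libraries were Pcdhb12 (Pearson r = 0.895), Zfp507 (0.859) and Tagln3 (0.853). Those most like Ltbp2 were Gm49388 (0.887), Cyp2s1 (0.865) and Pqlc2 (0.863). These are the highest of 14782 values each and describe these libraries, which share scaling and WT library 3. Of the 10 genes, Ltbp4 was the one most like Ltbp2 (r = 0.708, and 0.581 without WT library 3), although it fell between the genotypes where Ltbp2 rose.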

How the data were processed

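RNA was measured in 16 libraries, 8 per genotype, grouped by the titles. The deposited files hold whole-number counts per Ensembl gene. The submitters' processing notes name featureCounts, kallisto and GRCm39, without roles or versions; annotation, strand of counting and filters are not given in the sources used here. Symbols were matched for 25614 of 25719 genes. Lengths, overlaps and chromosomes came from GENCODE M21, on an older build, so no gene coordinates of the files are given; promoter coordinates are those of the RefSeq table. Reads of overlapping genes cannot be separated if strand was not used.

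The main test was edgeR 4.0.16 (R 4.3.3): robust quasi-likelihood F test, two-sided, TMM scaling, default expression filter, genotype as the only term, Benjamini-Hochberg adjustment over 14803 genes and a threshold of 0.05. CPM values are given as mean ± SD. Ratios used counts with 0.5 added and exact permutation tests. Log2 CPM used a prior count of 2. On simulated data with 200 genes changed 2-fold among 14735 tested, 87.5% were called and 4.37% of calls were unchanged genes. The simulation drew counts from the fitted model and changed few genes, whereas 48.3% of tested genes were called here. Its rates therefore need not hold for these data. No 2 libraries of a group differed by counting noise alone: the lowest chi-square between them was 6.56 per degree of freedom. This cannot tell whether 2 samples came from the same animal.

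From each pathway list, the 3 largest increases and 3 largest decreases past the threshold with a mean log2 CPM of at least 1 were named, plus Smad2, Smad3, Smad4, Smad7, Ccn2 and Tgfbi. Vhl and the 3 genes most like Ltbp1 and Ltbp2 were named too. Plat was added beside Plau after its values were seen. Some items that this rule takes are not reported here. Members and lists were chosen with earlier results of these data known. Alternatives covered scaling, filters, DESeq2 1.42.0, limma 3.58.1, covariates, the replicate block and left-out libraries.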

Additional observations from a re-analysis of the deposited data

Results flagged for a closer look

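In 1 of 36 checks of 8 libraries each, over the levels of the 10 genes and the 8 ratios, a library stood apart from the rest of its group, where chance gives about 1 in 20, or 1.8. The log2 ratio of Ltbp2 to Ltbp3 was -0.49 in WT library 3 and -1.08 in the next WT library, a gap of 0.532 of the group's range. The ratio was still below every KO library, of which the lowest was 0.11. The same library had the lowest share of counts in type I collagen of the WT.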

How the results depend on the processing

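Ltbp1, Ltbp2, Ltbp4 and Tgfbr3 kept their direction and passed the threshold in all 28 alternatives, 16 of which left out 1 library. With total counts in place of TMM 8270 genes were higher and 1415 lower, against 3792 and 3359 on the TMM scale. Of the calls 85.4% were higher, against 53.0%. Of the 10 genes 3 were higher and 3 lower. Tgfb1 (0.29), Tgfb3 (0.082), Tgfbr1 (0.16), Smad2 (0.13) and Ski (0.094) had the opposite sign to the TMM scale. Among these only Tgfb1 passed (edgeR, adjusted p = 0.0134). The median of all genes was 0.32 with total counts, so these signs are not read against 0. With the endothelial score as a covariate 3961 genes passed, 2147 higher and 1814 lower (7151 on genotype alone), and of the 10 genes 4 passed, 3 of them lower; Fbn2 was -0.59 and Tagln -0.44, both reversed. The cause of these changes was not tested. No pairing by replicate number was seen: same-numbered libraries correlated above 0.1 in 3 of 8 pairs and none best with its own number. The check used the 2000 most variable genes, which can follow other differences between libraries, so it cannot exclude a pairing. With the replicate block 7010 genes passed, while Htra1 (-0.50, edgeR, adjusted p = 0.0502) and Fbn2 (1.52, adjusted p = 0.0936) did not. If libraries were paired by number, the Tgfb2 to Tgfb1 ratio, at -0.35, had an adjusted p of 0.0125 (exact sign-flip test). Leaving out 1 library, without pairing, this ratio ran from -0.42 to -0.26 and that of Tgfbr1 to Tgfbr2 from 0.14 to 0.24. The first passed without WT library 7 or 8 and the second without WT library 4. Leaving out the 4 libraries with the most muscle RNA, and using the longest transcript as the length, were chosen after seeing the data. Depth limits none of the 10 genes, and intervals cover no more than the spread between these libraries.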
